A study of Danio rerio with 4 samples.

Results

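The genes described here encode the mitochondrial respiratory chain and ATP synthase in zebrafish (Danio rerio), split by the genome that carries them. The mitochondrial set was every one of the 13 protein genes of mitochondrial DNA (ND1 to ND6 with ND4L, CYTB, COX1 to COX3, ATP6 and ATP8). The nuclear set was every gene whose symbol begins with ndufa, ndufb, ndufc, ndufs, ndufv, uqcr or atp5, with sdha to sdhd, or with cox4 to cox8. Of 116 matching names, 113 had at least 20 counts over the 4 libraries, 13 of them mitochondrial and 100 nuclear, in a table of 23236 rows. The members just inside that limit were ndufa4l2 with 26 counts and ndufs8b with 30. The names just outside it were uqcrb with 13 counts, ndufb4 with 6, and ndufs1, which was listed at 0 in all 4 libraries. Whether reads of ndufs1, a core subunit of complex I, were counted under another name was not tested, and no level is read from that 0.

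The samples were whole zebrafish embryos of the AB strain at 7 days post fertilization, from intercrosses of tubgcp6+/- carriers, genotyped before RNA extraction and given no treatment. There were 2 libraries of tubgcp6 mutants and 2 libraries of their siblings. The tubgcp6 gene encodes a protein of the gamma-tubulin ring, from which microtubules grow. The labels do not give the mutant lesion, the number of embryos per library or how many siblings were heterozygous, so the sibling libraries may hold carriers of the mutant allele. Nothing says that the replicates came from separate clutches, and p-values here measure only the spread between these libraries.

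Levels are given as CPM, a gene's count over the TMM-adjusted size of its library, and are compared between groups and not between genes. Libraries held between 14246582 and 20652276 counts assigned to genes. The targeted gene, tubgcp6, stood at 30.2 and 29.2 CPM in mutants, against 35.3 and 38.9 CPM in siblings, a log2 fold change of -0.33 ± 0.10 (SE, adjusted p = 0.0123, edgeR). That difference did not pass without sibling replicate 2 (adjusted p = 0.267) or with DESeq2 (adjusted p = 0.0574). A gene is said to have risen or fallen in mutants where edgeR's quasi-likelihood test gave a Benjamini-Hochberg adjusted p under 0.05 over all 20097 genes tested. By that rule 43.9% of all genes tested changed, 22.9% upward and 21.0% downward, with a median log2 fold change of 0.01. Mutant and sibling libraries did not overlap for 71.7% of all genes tested, 36.6% with mutants higher and 35.1% with mutants lower. Counts of respiratory chain genes are to be read against those shares.

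The respiratory chain passes electrons from NADH and succinate to oxygen through complexes I, II, III and IV, and complexes I, III and IV pump protons across the inner mitochondrial membrane. ATP synthase, complex V, uses the proton gradient to make ATP. Complex II is encoded wholly by nuclear genes, whereas the other complexes are built from subunits of both genomes, and the mitochondrial genes are transcribed as long polycistronic RNAs that are cut into single messages.

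Transcripts of the mitochondrial genes took a larger share of the mutant libraries, while the share of the nuclear genes overlapped between the groups. The 13 mitochondrial genes held 4.85% and 4.56% of all counts in mutants, against 4.02% and 3.95% in siblings (ratio of group means 1.18). The mutant libraries were both above the sibling libraries. The nuclear members held 1.12% and 1.08% in mutants, against 1.09% and 1.05% in siblings. Those ranges overlapped, and the ratio of means was 1.03. Of the counts of the whole set, mitochondrial genes made up 81.2% and 80.9% in mutants, against 78.7% and 78.9% in siblings. COX1 alone, the catalytic core of complex IV, supplied 48.1% and 47.2% of the mitochondrial counts in mutants, against 50.7% and 51.8% in siblings. With COX1 left out, the other mitochondrial genes held 2.51% and 2.41% of all counts in mutants, against 1.98% and 1.90% in siblings (ratio 1.27). Shares were not tested, since an exact two-sided test of 2 against 2 libraries cannot go below p = 0.333.

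**Figure D1:**
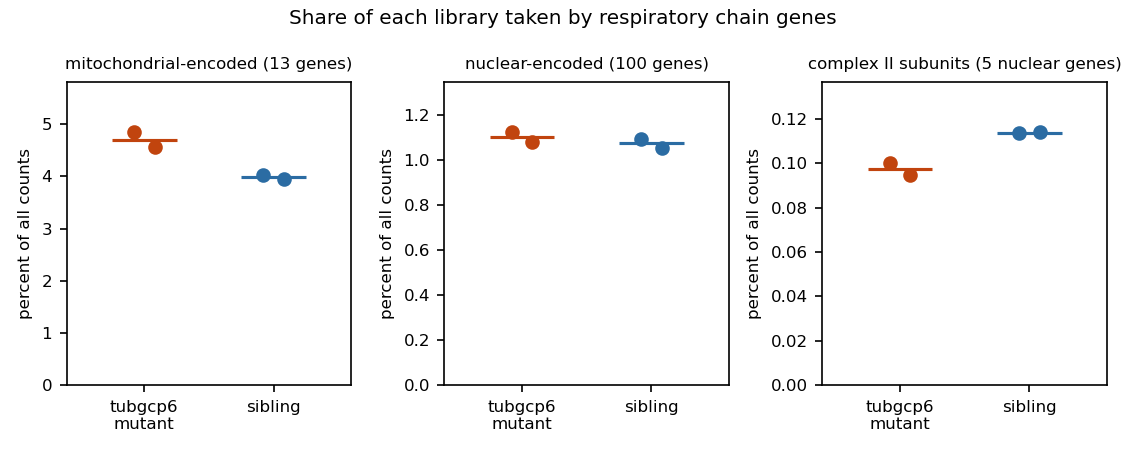
Percent of each library's counts held by the mitochondrial-encoded genes, the nuclear-encoded genes and the complex II subunits, in 1 panel each, with mutants left of siblings, each point 1 library and the bar the group mean. The mutant points lie above the sibling points for the mitochondrial genes (4.85% and 4.56% against 4.02% and 3.95%), overlap with them for the nuclear genes and lie below them for complex II.

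Of the 13 mitochondrial genes, 8 rose in mutants (61.5%, against 22.9% of all genes tested) and 0 fell (against 21.0%). The other 5 did not pass the test, and the median log2 fold change was 0.25. Both mutant libraries stood above both sibling libraries for 12 of the 13 (92.3%), against 36.6% of all genes tested. Genes on shared long transcripts are not independent of each other, so the 13 do not count as 13 separate results. In a whole-embryo library, more cells rich in mitochondria and more mitochondrial RNA per cell cannot be told apart.

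ATP6, the proton channel subunit of ATP synthase, was at 2391 and 2215 CPM in mutants, against 1687 and 1574 CPM in siblings (1.41-fold, log2 fold change 0.50 ± 0.09, adjusted p = 3.36e-05, edgeR). The groups did not overlap, and ATP6 was the only mitochondrial gene that passed under each of the 11 alternative settings run. CYTB, the heme-bearing core of complex III, was at 5278 and 4948 CPM in mutants, against 3797 and 3559 CPM in siblings (1.39-fold, 0.48 ± 0.09, adjusted p = 0.000132, edgeR). The CYTB groups did not overlap either, but without sibling replicate 2 its adjusted p was 0.0532. Within the mitochondrial counts, CYTB took 10.8% and 11.1% in mutants, against 9.36% and 9.01% in siblings. ATP6 took 4.89% and 4.95% of them in mutants, against 4.16% and 3.98% in siblings.

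Among the complex I core subunits that mitochondrial DNA encodes, ND1, ND3, ND4 and ND4L rose. ND1 had 1349 and 1259 CPM in mutants, against 1095 and 1011 CPM in siblings (0.31 ± 0.09, adjusted p = 0.00426, edgeR). ND3 had 265 and 230 CPM in mutants, against 212 and 185 CPM in siblings (0.32 ± 0.09, adjusted p = 0.00412). ND4 had 1599 and 1527 CPM in mutants, against 1315 and 1231 CPM in siblings (0.30 ± 0.09, adjusted p = 0.00569). Mutants exceeded siblings in every library pair of these genes. ND4L had 270 and 294 CPM in mutants, against 248 and 225 CPM in siblings (0.25 ± 0.08, adjusted p = 0.0147). The remaining complex I genes did not pass, with log2 fold changes of 0.19 for ND2 (adjusted p = 0.0695), 0.17 for ND5 (adjusted p = 0.105) and 0.19 for ND6 (adjusted p = 0.0814), and in each the groups did not overlap.

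Of the mitochondrial genes of complex IV, COX2 and COX3 rose and COX1 did not pass. COX3, a core subunit next to the catalytic one, had 5129 and 4942 CPM in mutants, against 4164 and 3892 CPM in siblings (0.32 ± 0.09, adjusted p = 0.00589, edgeR). COX2, which takes electrons from cytochrome c, had 6090 and 5387 CPM in mutants, against 4881 and 4815 CPM in siblings (0.24 ± 0.10, adjusted p = 0.0411). COX1 had 23557 and 21141 CPM in mutants, against 20574 and 20473 CPM in siblings (0.12 ± 0.11, adjusted p = 0.380). Both mutant libraries were the higher ones for COX1, with mutant replicate 2 close to the siblings. ATP8, the small partner of ATP6, was the one mitochondrial gene whose groups overlapped, at 14.9 and 10.5 CPM in mutants and 12.5 and 13.3 CPM in siblings (-0.04 ± 0.16, adjusted p = 0.868).

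Fewer mitochondrial genes were called when 1 or the other sibling library was left out, in fits that leave 1 sibling library. Their median log2 fold change was 0.32 without sibling replicate 1 and 0.23 without sibling replicate 2, against 0.25 with all libraries. ATP6 alone kept its call without sibling replicate 2, where the other 7 called genes had log2 fold changes between 0.19 and 0.43. Without sibling replicate 1, ATP6, CYTB and ND3 passed, and ND1, ND4, ND4L, COX2 and COX3 had adjusted p values between 0.0552 and 0.297. COX2 also missed the threshold without mutant replicate 1 (log2 fold change 0.14), and more mitochondrial genes rose without mutant replicate 2. ATP8 and ATP6 overlap on 1 message, as do ND4L and ND4, and ND6 lies on the opposite strand to ND5. How reads were divided within these pairs is not given in the sources used here.

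**Figure D2:**
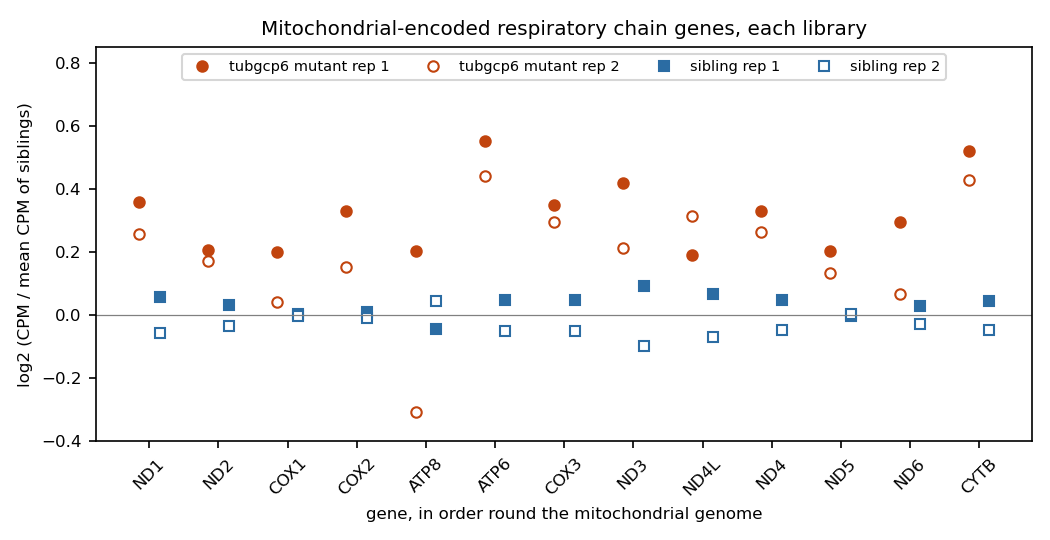
Log2 of the CPM of each mitochondrial-encoded gene over the mean CPM of the siblings, with genes in their order round the mitochondrial genome and each point 1 library (mutant circles left of sibling squares). Both mutant points lie above both sibling points for every gene except ATP8, and the gap is largest for ATP6 and CYTB.

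The quotient of mitochondrial over nuclear counts was higher in mutants for complexes I, III and V and overlapped for complex IV. Mitochondrial counts of complex V were 0.533 and 0.518 times the nuclear counts in mutants, against 0.384 and 0.378 times in siblings (ratio of means 1.38). For complex III the quotient was 5.50 and 5.68 in mutants, against 4.16 and 4.07 in siblings (1.36). For complex I it was 2.63 and 2.696 in mutants, against 2.31 and 2.26 in siblings (1.17). In these 3 complexes the groups did not overlap. For complex IV it was 17.4 and 17.0 in mutants and 16.6 and 17.4 in siblings, which overlapped (1.01). Both parts of complex IV took a larger share of the mutant libraries, without overlap (ratios 1.14 for mitochondrial and 1.12 for nuclear genes). The mitochondrial part of complex III is CYTB alone, and that of complex V was almost all ATP6 (136948 counts, against 894 for ATP8). These quotients compare counts without correction for transcript length, so they are read between groups only, and they were not tested.

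The share of nuclear members that rose was near that of all genes, and the share that fell was below it. Of the 98 nuclear members tested, 25 rose in mutants (25.5%, against 22.9% of all genes), 7 fell (7.14%, against 21.0%) and 66 did not pass. Their median log2 fold change was 0.12. Mutants were above siblings without overlap for 49 of the 98, against 36.6% of all genes, and below for 16 of the 98 (16.3%), against 35.1%. The 4366 tested genes of a similar level, between the lower and upper quartiles of the nuclear members, rose in 26.8% of cases and fell in 27.1%. The members ndufa4l2 and ndufs8b had too few counts to be tested.

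**Figure D3:**
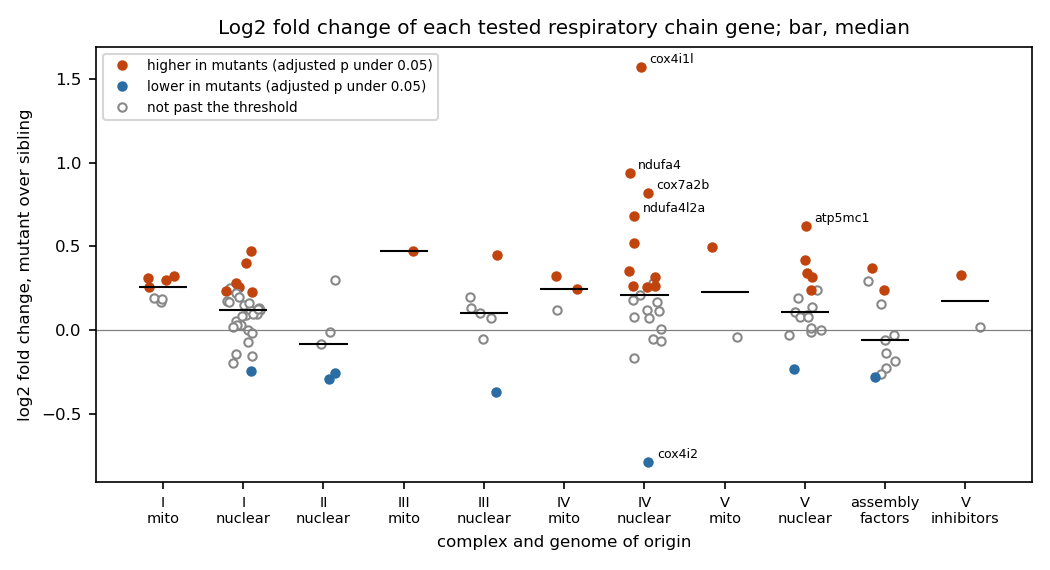
Log2 fold change (mutant over sibling) of each gene tested, by complex and genome of origin, with each point 1 gene, filled points those past an adjusted p of 0.05 and bars the medians. The mitochondrial genes other than ATP8 lie above 0, complex II has a median of -0.08, and nuclear complex IV holds both the highest and the lowest called gene, cox4i1l and cox4i2.

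Complex I, NADH dehydrogenase, had 33 nuclear subunits tested, of which 6 rose, 1 fell and 26 did not pass (median 0.12). The shares that rose and fell were 18.2% and 3.03%, against 22.9% and 21.0% of all genes tested. The nuclear-encoded core subunits, which carry the flavin and iron-sulfur clusters, numbered 6 tested, with 0 risen, 1 fallen and a median of -0.08. The accessory subunits numbered 27, with 6 risen, 0 fallen and a median of 0.15. Whether core and accessory subunits differed was not tested.

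The accessory subunit ndufc2 had 43.8 and 42.3 CPM in mutants, against 34.3 and 28.2 CPM in siblings (0.47 ± 0.11, adjusted p = 0.00066, edgeR). The membrane arm subunit ndufb6 had 37.4 and 43.4 CPM in mutants, against 30.9 and 30.4 CPM in siblings (0.40 ± 0.11, adjusted p = 0.00263, edgeR). Both genes were higher in each mutant library than in either sibling library. Smaller rises were measured for ndufb2 (0.28, adjusted p = 0.0166), ndufa12 (0.25, adjusted p = 0.0298), ndufa10 (0.23, adjusted p = 0.0366) and ndufb10 (0.23, adjusted p = 0.0441). The member that fell, ndufv1, the NADH-binding flavoprotein of the core, had 419.5 and 369 CPM in mutants, against 470.3 and 465 CPM in siblings (-0.25 ± 0.08, adjusted p = 0.0180). Without sibling replicate 2, all 7 of these calls were lost (adjusted p between 0.0622 and 0.324), and without sibling replicate 1 those of ndufb2, ndufa12, ndufa10, ndufb10 and ndufv1 (adjusted p between 0.0594 and 0.253). Those of ndufa10 and ndufb10 were also lost without mutant replicate 1 (adjusted p = 0.0953 and 0.106), and those of ndufb2, ndufa12, ndufa10 and ndufb10 with DESeq2 (adjusted p between 0.0801 and 0.160).

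Complex II, succinate dehydrogenase, fell in its catalytic subunits. Its 5 subunit genes held 0.100% and 0.0947% of all counts in mutants, against 0.114% and 0.114% in siblings (ratio 0.856). Of the 5, 2 fell (40.0%, against 21.0% of all genes tested) and 0 rose (against 22.9%). The flavoprotein sdha, which oxidizes succinate, had 570.3 and 535.6 CPM in mutants, against 659.4 and 659.5 CPM in siblings (-0.25 ± 0.08, adjusted p = 0.0126, edgeR). The iron-sulfur subunit sdhb had 293.9 and 271.6 CPM in mutants, against 341.8 and 350.4 CPM in siblings (-0.29 ± 0.08, adjusted p = 0.00454). The groups did not overlap for either gene. Both calls were lost without sibling replicate 1, at log2 fold changes of -0.26 for sdha and -0.31 for sdhb. They were also lost without sibling replicate 2, at -0.26 for sdha and -0.27 for sdhb.

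Complex III, the cytochrome bc1 complex, had 7 nuclear genes tested, of which 1 rose and 1 fell (14.3% each). Among all genes tested, 22.9% rose and 21.0% fell. The small subunit uqcr10 had 44.5 and 43.4 CPM in mutants, against 34.3 and 30.4 CPM in siblings (0.45 ± 0.10, adjusted p = 0.000674, edgeR). Its call was lost without sibling replicate 2, at a log2 fold change of 0.36. The core protein gene uqcrc2a had 127.6 and 118.8 CPM in mutants, against 161.9 and 156.1 CPM in siblings (-0.37 ± 0.08, adjusted p = 0.000687), and passed in all 11 alternatives. Its paralogue uqcrc2b did not pass, at a log2 fold change of 0.10. The share of uqcrc2a in the counts of the pair was 44.9% and 46.5% in mutants, against 53.4% and 54.1% in siblings.

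Complex IV, cytochrome c oxidase, had the largest number of nuclear subunits that rose. Of 23 tested, 10 rose (43.5%, against 22.9% of all genes tested) and 1 fell (4.35%, against 21.0%). The other 12 missed the threshold, and the median log2 fold change was 0.21. Together the nuclear subunits of complex IV held 0.198% and 0.189% of all counts in mutants, against 0.177% and 0.167% in siblings, without overlap (ratio 1.12).

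Several complex IV subunits exist as paralogues that differ between tissues or with oxygen supply. In such sets some genes were called and others were not. Whether the paralogues of a set differed from each other was not tested, here or in the other complexes. Subunit 4 has a main isoform, cox4i1, and an isoform, cox4i2, that is known in mammals for its induction at low oxygen. In mutants cox4i2 fell to 40.4 and 34.0 CPM, against 62.5 and 65.7 CPM in siblings (-0.79 ± 0.10, adjusted p = 1.71e-07, edgeR). The paralogue cox4i1l rose, at 6.56 and 6.22 CPM in mutants, against 2.69 and 1.75 CPM in siblings (1.57 ± 0.25, adjusted p = 5.43e-06), from 111 and 113 reads in the mutant libraries, against 38 and 36 in the sibling libraries. The main form cox4i1 did not pass (0.12, adjusted p = 0.267). Of the counts of these 3 genes, cox4i2 took 15.3% and 13.8% in mutants, against 22.8% and 26.3% in siblings, and cox4i1 took 82.3% and 83.7% in mutants, against 76.2% and 73.0% in siblings.

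The ndufa4 gene, whose mammalian product was first assigned to complex I and is now counted with complex IV, had 55.2 and 55.8 CPM in mutants, against 30.5 and 27.5 CPM in siblings (0.94 ± 0.10, adjusted p = 6.33e-09, edgeR). Its more abundantly counted relative ndufa4l did not pass, at 0.08. The share of ndufa4 in its set was 17.3% and 18.8% in mutants, against 11.3% and 10.5% in siblings, while ndufa4l2a rose at low level (0.68 ± 0.22, adjusted p = 0.0117), with 6.15 and 5.45 CPM in mutants, against 3.75 and 3.49 CPM in siblings. The call of ndufa4l2a was lost without mutant replicate 1 (adjusted p = 0.0535), without sibling replicate 2 (adjusted p = 0.127) and with DESeq2 (adjusted p = 0.101).

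Among the small structural subunits, cox7a2b had 20.2 and 15.7 CPM in mutants, against 10.8 and 9.60 CPM in siblings (0.82 ± 0.15, adjusted p = 4.38e-05, edgeR). Its relatives did not pass, at 0.01 for cox7a1, 0.07 for cox7a2a and -0.06 for cox7a2l. The subunit cox6b1 had 34.6 and 33.0 CPM in mutants, against 23.1 and 24.0 CPM in siblings (0.52 ± 0.11, adjusted p = 0.000248), while cox6b2 was at 0.17 and did not pass. For cox8a the levels were 182 and 176 CPM in mutants, against 144 and 136 CPM in siblings (0.35 ± 0.08, adjusted p = 0.000899), while cox8b was at 0.21 and did not pass. Each of the genes that rose was higher in both mutant libraries than in either sibling library.

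The other complex IV calls were smaller, at 0.32 for cox7c (adjusted p = 0.00573), 0.26 for cox7b (adjusted p = 0.0161), 0.26 for cox6a1 (adjusted p = 0.0128) and 0.26 for cox5ab (adjusted p = 0.0172). Their paralogues cox6a2, at 0.12, and cox5aa, at -0.17 (adjusted p = 0.118), did not pass. The calls of cox4i2, cox4i1l, ndufa4, cox7a2b and cox6b1 passed in all 11 alternatives. Without sibling replicate 2 those of cox8a, cox7c, cox7b, cox6a1 and cox5ab were lost (adjusted p between 0.0914 and 0.306), and without sibling replicate 1 those of cox7b, cox6a1 and cox5ab (adjusted p between 0.0800 and 0.139). The calls of cox7b and cox5ab were also lost with DESeq2 (adjusted p = 0.0627 and 0.0684), and that of cox7b without mutant replicate 1 (adjusted p = 0.0645).

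**Figure D4:**
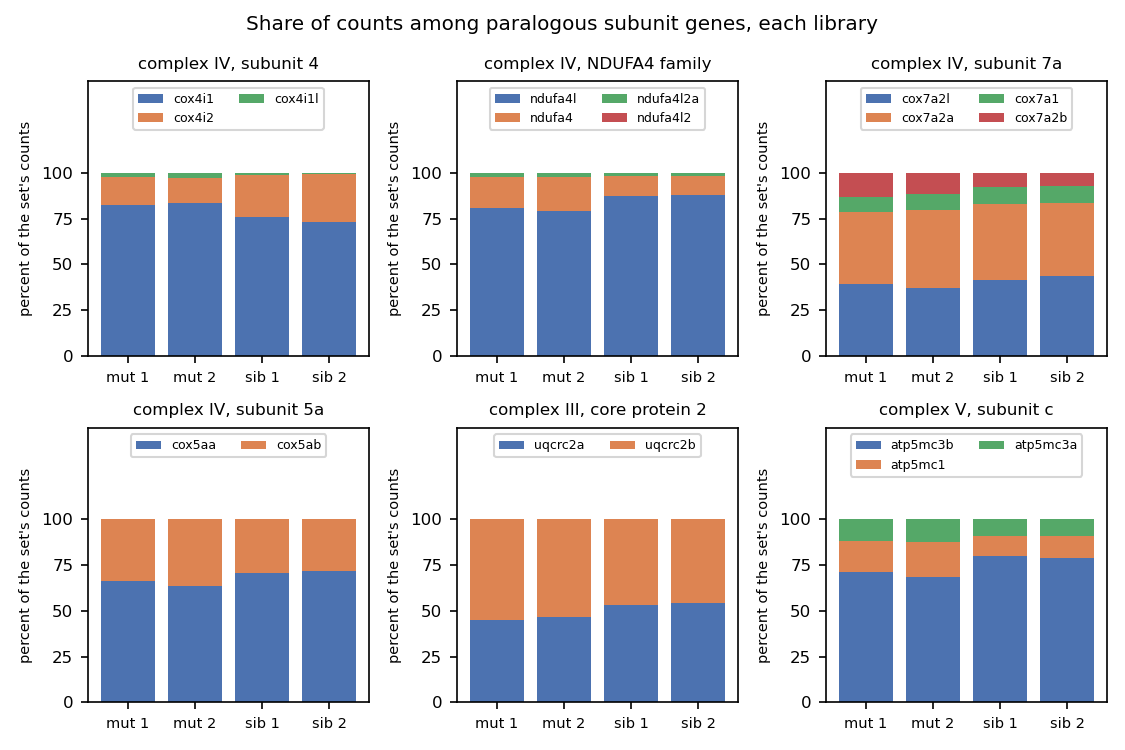
Stacked bars of the share of each gene, in percent, in the summed counts of its set of paralogous subunits, with 1 bar per library and the mutant libraries (mut) left of the sibling libraries (sib). The shares of ndufa4 and atp5mc1 are higher in both mutant libraries, and those of cox4i2 and uqcrc2a are lower.

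Complex V, ATP synthase, had 17 nuclear subunits tested, of which 5 rose, 1 fell and 11 did not pass (median 0.11). The shares that rose and fell were 29.4% and 5.88%, against 22.9% and 21.0% of all genes tested. The catalytic subunits of the F1 head were close to 0, at 0.01 for atp5fa1 and -0.01 for atp5f1b, and did not pass. Changes were measured in the genes of the c subunit, which forms the rotating proton-driven ring and is encoded by several genes with different leader peptides. The c subunit gene atp5mc1 had 139.3 and 139.4 CPM in mutants, against 90.5 and 91.0 CPM in siblings (0.62 ± 0.08, adjusted p = 5.65e-07, edgeR). The gene atp5mc3a had 93.6 and 87.7 CPM in mutants, against 70.2 and 72.6 CPM in siblings (0.34 ± 0.09, adjusted p = 0.00219). The gene atp5mc3b, which has most of the counts of the set, had 579.8 and 494.9 CPM in mutants, against 639.7 and 621.8 CPM in siblings (-0.23 ± 0.09, adjusted p = 0.0305). Its share of the c subunit counts was 71.3% and 68.6% in mutants, against 79.9% and 79.2% in siblings, and that of atp5mc1 was 17.1% and 19.3% in mutants, against 11.3% and 11.6% in siblings.

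The other ATP synthase genes that rose encode small subunits, namely atp5md (0.42, adjusted p = 0.00357, edgeR), atp5mf (0.32, adjusted p = 0.00543) and atp5f1e, the epsilon subunit of the central stalk (0.24, adjusted p = 0.0465). The inhibitor atp5if1a, which in mammals blocks ATP hydrolysis by a stalled enzyme, had 37.4 and 36.0 CPM in mutants, against 29.9 and 28.5 CPM in siblings (0.33 ± 0.10, adjusted p = 0.0105), while its paralogue atp5if1b was at 0.02 and did not pass. The call of atp5mc1 passed in all 11 alternatives. Without sibling replicate 2 the calls of atp5mf, atp5md, atp5f1e, atp5mc3b and atp5if1a were lost (adjusted p between 0.185 and 0.553), and without sibling replicate 1 those of atp5mc3a, atp5mc3b, atp5f1e and atp5if1a (adjusted p between 0.0644 and 0.265). Those of atp5f1e and atp5if1a were lost with DESeq2 (adjusted p = 0.181 and 0.0699), that of atp5f1e without mutant replicate 1 (adjusted p = 0.147) and that of atp5mc3b without mutant replicate 2 (adjusted p = 0.117).

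Assembly factors matched by the symbol rule numbered 11, of which 2 rose (18.2%), 1 fell (9.09%) and 8 did not pass (median -0.06). Among all genes tested, 22.9% rose and 21.0% fell. The complex I factors ndufaf2 (0.37 ± 0.15, adjusted p = 0.0420, edgeR) and ndufaf3 (0.24 ± 0.09, adjusted p = 0.0408) rose. The factor sdhaf2, which attaches flavin to sdha, had 38.8 and 36.3 CPM in mutants, against 47.1 and 44.4 CPM in siblings (-0.28 ± 0.10, adjusted p = 0.0212, edgeR). Each of the 3 calls was lost without sibling replicate 1 (adjusted p between 0.159 and 0.315), without sibling replicate 2 (adjusted p between 0.0795 and 0.363) and with DESeq2 (adjusted p between 0.0743 and 0.192), and that of ndufaf2 also without mutant replicate 2 (adjusted p = 0.0997). Outside the symbol rule, the list of complex III and IV factors and cytochrome c had 30 genes tested, with 3 risen and 1 fallen. The list of complex I and V factors had 14, with 2 risen and 1 fallen. The median log2 fold change was 0.01 in the first list and 0.16 in the second. With 1 library left out in turn, it ranged from -0.12 to 0.12 in the first and from 0.01 to 0.30 in the second. The numbers called also changed with the library left out.

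In the first of those lists higd1a, a small inner membrane protein that binds complex IV, had 67.6 and 59.8 CPM in mutants, against 27.9 and 27.7 CPM in siblings (1.19 ± 0.10, adjusted p = 4.75e-11, edgeR). That difference passed in all 11 alternatives. Cytochrome c1, cyc1, did not pass (-0.10, adjusted p = 0.341).

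Genes that copy, transcribe and process mitochondrial DNA were called in few cases. Among all genes tested, 22.9% rose and 21.0% fell. Of 22 genes of mitochondrial DNA maintenance and transcription, 1 rose and 4 fell (median -0.03). The packaging factor tfam was at 0.13 (adjusted p = 0.435, edgeR) and the mitochondrial RNA polymerase polrmt at -0.05, and neither passed. The transcription factor tfb2m, which opens the promoter for polrmt, fell (-0.38 ± 0.10, adjusted p = 0.00323). Also fallen were mterf3 (-0.55, adjusted p = 0.00575, edgeR), si:dkeyp-94h10.5 (-0.54, adjusted p = 0.0246) and mterf1 (-0.43, adjusted p = 0.0440). The gene that rose was tk2 (0.49, adjusted p = 0.0309). Of 17 genes of mitochondrial RNA handling, 2 rose and 2 fell (median -0.06). Those that fell were trmt10c (-0.74 ± 0.13, adjusted p = 4.18e-05, edgeR) and fastkd2 (-0.48 ± 0.12, adjusted p = 0.00134). The 2 that rose were hsd17b10 (0.30, adjusted p = 0.0237, edgeR) and slirp (0.34, adjusted p = 0.0361). The RNA-binding stabilizer lrpprc, the partner of slirp, was at -0.06 and did not pass. With DESeq2 the calls of mterf3, si:dkeyp-94h10.5, mterf1, tk2 and hsd17b10 were lost (adjusted p between 0.0522 and 0.187).

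Of 27 mitochondrial translation factors and tRNA synthetases, 3 rose and 0 fell (median 0.16), iars2 by 0.50. Of 75 mitochondrial ribosomal protein genes, taken by name after the data were seen, 6 rose and 4 fell (median 0.08). The numbers in this paragraph stand beside 22.9% of all genes tested that rose and 21.0% that fell. Of 17 regulators of mitochondrial gene programs, 1 rose and 7 fell (median -0.23). Among those that fell was pparab (-0.81, adjusted p = 0.000254, edgeR), whose call passed in all 11 alternatives. The coactivator ppargc1a had 12.7 and 20.8 CPM in mutants, against 23.9 and 24.2 CPM in siblings (-0.52 ± 0.15, adjusted p = 0.00540, edgeR), and its call was lost without mutant replicate 1 (-0.22, adjusted p = 0.138). The coactivator ppargc1b (-0.29 ± 0.09, adjusted p = 0.00685) and the transcription factor nrf1 (-0.29, adjusted p = 0.0262) fell, while gabpa, another activator of nuclear respiratory genes, rose (0.29, adjusted p = 0.0375).

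Several of these calls were lost with 1 library left out, in fits that leave 1 library in a group. Some effects moved little, as for ppargc1b at -0.30 without sibling replicate 1 and -0.29 without sibling replicate 2. Others moved more, as for nrf1 at -0.16 without sibling replicate 2. Of the 17 regulators, 2 fell without sibling replicate 2 in place of 7, and the calls of sirt3 (adjusted p = 0.0571), yy1a (0.156) and sirt1 (0.217) were among those lost. Without sibling replicate 1, 4 of them fell, as with DESeq2. With 1 library left out in turn, the median ranged from -0.034 to -0.0075 for mitochondrial DNA and from -0.13 to -0.03 for RNA handling. It ranged from 0.08 to 0.18 for translation and from -0.02 to 0.12 for the ribosomal proteins. The numbers called in these lists also changed with the library left out, as among all genes tested. Without sibling replicate 2, the calls of tfb2m (log2 fold change -0.35), ppargc1b (-0.29), nrf1 (-0.16), gabpa (0.31) and slirp (0.39) were also lost. So were those of mterf3 (-0.35), mterf1 (-0.38), si:dkeyp-94h10.5 (-0.49), tk2 (0.53) and hsd17b10 (0.35). Without sibling replicate 1, those of ppargc1b (-0.30), gabpa (0.26), slirp (0.30), sirt1 (-0.23) and yy1a (-0.23) were lost. So were those of mterf1 (-0.47), tk2 (0.47), hsd17b10 (0.26) and si:dkeyp-94h10.5 (-0.59). Without mutant replicate 1, the calls of slirp (0.29), tk2 (0.48), hsd17b10 (0.18), si:dkeyp-94h10.5 (-0.47) and sirt1 (-0.19) were lost. Without mutant replicate 2, those of mterf1 (-0.39) and gabpa (0.27) were lost. With DESeq2 those of nrf1, gabpa and slirp were lost (adjusted p between 0.101 and 0.178).

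**Figure D5:**
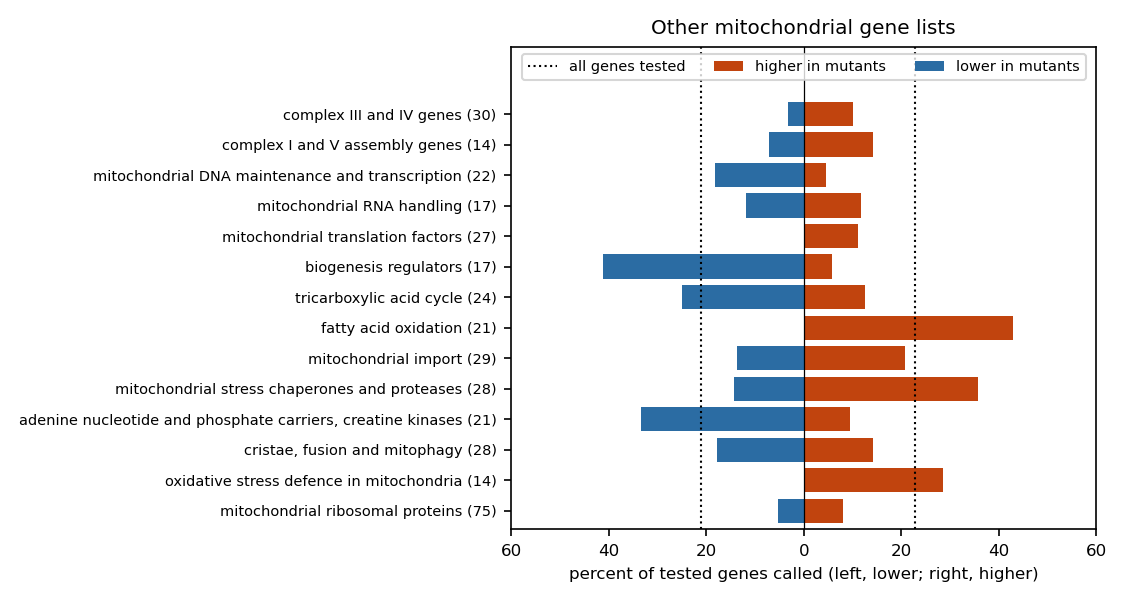
Percent of the tested genes of each mitochondrial list that rose (bars to the right) and that fell (bars to the left) in mutants, with the number tested in brackets and dotted lines at the 22.9% and 21.0% of all genes tested that rose and fell. Fatty acid oxidation holds 9 risen and 0 fallen genes, whereas biogenesis regulators hold 1 risen and 7 fallen. Without sibling replicate 2 fewer genes were called in both lists, as among all genes tested. The median log2 fold change was then 0.23 for fatty acid oxidation and -0.20 for the regulators.

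Markers of several organs differed between the groups in the same libraries. Marker numbers here and in the next paragraph stand beside 22.9% of all genes tested that rose and 21.0% that fell. The groups did not overlap for 71.7% of all genes tested. The summed level of the liver markers was 4803 and 4657 CPM in mutants, against 1996 and 1860 CPM in siblings, and 5 of 6 markers rose. Those that rose were cp, fgb, serpina1l, tfa and apoa2, and fabp10a did not pass. The heart markers summed to 156 and 149 CPM in mutants, against 83.6 and 83.0 CPM in siblings, and 5 of 5 tested rose. With DESeq2 3 of the 5 rose, and myh6 and tnnt2a were lost (adjusted p = 0.0631 and 0.0947). The call of myh6 was also lost without sibling replicate 1 (log2 fold change 0.42), and that of tnnt2a without sibling replicate 2 (0.36). The photoreceptor markers summed to 392 and 312 CPM in mutants, against 1285 and 1230 CPM in siblings, and 8 of 8 fell. The sums of those 3 lists separated the groups without overlap, as did the intestinal, red cell and neuronal sums that follow.

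Intestinal markers summed to 793 and 813 CPM in mutants, against 1164 and 1135 CPM in siblings, with 3 of 4 fallen. Red cell markers summed to 203 and 239 CPM in mutants, against 407 and 388 CPM in siblings, with 4 of 5 fallen and 1 risen. Neuronal markers summed to 1142 and 1127 CPM in mutants, against 1250 and 1311 CPM in siblings, with 2 of 5 fallen. Skeletal muscle markers overlapped between the groups, with a ratio of 1.004 and 2 of 12 risen and 3 fallen. Ionocyte markers overlapped too, with a ratio of 1.01 and 2 of 7 risen and 2 fallen. In each list 0 markers were at 0 in all libraries, and the part of these markers in the respiratory chain results was not tested.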

How the data were processed

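Raw read counts per gene were deposited by the authors for 2 tubgcp6 mutant and 2 sibling libraries. The kit was NEBNext Ultra, per the labels' protocols. The submitters' processing notes list, without roles, the build GRCz11 and the tools featureCounts 2.0.1, STAR 2.7.10a, fastp 0.23.2, DESeq2 1.26.0 and R 4.2.2. The sources used here do not give the annotation, strand setting, RNA selection or treatment of multi-mapping reads, so counts of near-identical paralogues and overlapping genes are uncertain.

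Counts were tested with edgeR 4.0.16 (limma 3.58.1, R 4.3.3): filterByExpr removed 3139 rows, TMM factors scaled the libraries, and the quasi-likelihood test was adjusted by Benjamini-Hochberg over all genes tested. The standard error is the absolute log2 fold change over the square root of F. CPM uses TMM-scaled library sizes. The test was tried on simulated counts.

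Alternatives were other scalings, no filter, DESeq2 1.42.0, a replicate block and each library left out. Replicates differed beyond counting noise (chi-square per degree of freedom 5.78 in mutants and 2.78 in siblings).

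The members and gene lists were chosen with earlier results of these data known. Named were all mitochondrial genes, up to 5 called members per complex and direction, their paralogues and up to 4 called genes per list. The genes ndufb10, cox7b, cox7c, tfam, polrmt, lrpprc, cyc1, atp5fa1 and atp5f1b were added after their values were seen. Also named outside those rules were nrf1, gabpa, sirt1, yy1a, mterf1, hspd1, ddit3, clpxb and pycr1a. So were slc25a20, hadhaa, hadh, cpt1ab, acadl, fabp10a, apoa2 and tnnt2a. After the data were seen, dldh replaced dld (the Notch ligand deltaD) in the citric acid cycle list and an aldehyde oxidase was removed from the oxidative defence list.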

Additional observations from a re-analysis of the deposited data

How the results depend on the processing

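The mitochondrial genes that rose numbered 8, and between 7 and 10 under the other scalings, without the filter on low counts and with DESeq2. Fewer passed with either sibling library left out and more without mutant replicate 2, and no mitochondrial gene fell in any alternative. The nuclear members that rose numbered 25 and those that fell 7. With DESeq2 14 rose (14.3% of all genes then rose), and with 1 library left out 6 to 39 rose and 2 to 12 fell. Without sibling replicate 1 17.2% and without sibling replicate 2 14.6% of all genes rose. The share of all genes that fell was smaller in those fits too, and the cause was not tested. Of the called members, 1 of 8 mitochondrial and 7 of 32 nuclear passed in all 11 alternatives. The median log2 fold change ranged from 0.21 to 0.33 for mitochondrial and from 0.06 to 0.17 for nuclear genes. The ratio of mitochondrial shares was 1.27 without the 5 genes of largest total count, COX1 among them, and 1.145 to 1.217 with 1 library left out.

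Signs turned round in uncalled values near 0. With 1 library left out in turn, log2 fold changes ranged from -0.32 to 0.20 for ATP8, from -0.094 to 0.11 for atp5if1b, from -0.046 to 0.051 for cox7a1, from -0.20 to 0.056 for cox7a2l and from -0.0073 to 0.19 for uqcrc2b and for the median of nuclear complex III. The median of assembly factors ranged from -0.12 to 0.040. With upper quartile scaling atp5if1b was at -0.0098 and cox7a1 at -0.021, and cox7a1 was at -0.0035 with DESeq2 size factors and -0.0060 with DESeq2.

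A further 4 mitochondrial (ND2, ND5, ND6 and COX1) and 20 nuclear members passed in at least 1 alternative, the nuclear ones including cox5aa, cox6b2, cox8b and uqcrc2b. With other scalings the calls of COX2, ndufa10, ndufa12, ndufb10, ndufaf2, ndufaf3 and atp5f1e were lost at adjusted p values between 0.0521 and 0.0905. Replicate numbers name the libraries and pair nothing in the labels: the deviations of same-numbered libraries correlated at 0.0182. With the replicate number as a block, 10 mitochondrial and 29 nuclear members rose and 9348 genes changed in all. The depth of 2 libraries per group limits small differences.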

Other observations

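Genes of other mitochondrial pathways were called in both directions. Their numbers are to be read against the 22.9% of all genes tested that rose and the 21.0% that fell. Of 21 genes of fatty acid oxidation tested, 9 rose and 0 fell (median log2 fold change 0.23), among them eci2 (0.68 ± 0.09), hadhab (0.58 ± 0.09) and cpt2 (0.55). Of the 9 calls, those of these 3 genes passed without sibling replicate 2, and those of eci1 (adjusted p = 0.115, edgeR), slc25a20 (0.123), hadhaa (0.182), hadh (0.252), cpt1ab (0.105) and acadl (0.127) were lost. Of 24 genes of the citric acid cycle and pyruvate dehydrogenase, 3 rose and 6 fell (median -0.13). With 1 library left out in turn the median ranged from -0.18 without mutant replicate 1, where the most genes fell, to -0.08 without mutant replicate 2. The genes pdhx (-0.46), mdh1aa, the cytosolic malate dehydrogenase (-0.45), and dlst (-0.36) fell, while suclg2 (0.58) rose. Summed levels of liver and heart markers were higher in the same libraries, and their part in these values was not tested.

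The mitochondrial stress and chaperone list had 10 of 28 genes risen and 4 fallen. The fallen genes were atf5a (-0.41, adjusted p = 0.000988, edgeR), ddit3 (-0.27), clpxb (-0.25) and pycr1a (-0.41). The call of atf5a was lost without sibling replicate 1, at a log2 fold change of -0.31. Those of ddit3 (-0.31), clpxb (-0.24) and pycr1a (-0.46) were lost in that fit too. Without sibling replicate 2, those of ddit3 (-0.24), clpxb (-0.26) and pycr1a (-0.35) were lost, and without mutant replicate 1 that of pycr1a (-0.39). With DESeq2 the calls of clpxb (adjusted p = 0.0652) and pycr1a (adjusted p = 0.189) were lost. With DESeq2 4 of the 28 rose, where 14.3% of all genes rose. Fewer of the 28 rose with either sibling library left out, as among all genes tested, and their median was 0.05 in both fits. Among the risen genes were the one-carbon enzyme mthfd1l (1.93 ± 0.20) and the serine synthesis enzymes psat1 (0.83) and phgdh (0.55). The chaperone hspd1 rose by 0.32, a call lost without sibling replicate 2 (log2 fold change 0.29). Of 14 oxidative defence genes 4 rose and 0 fell, gpx1b by 1.33. Of 21 carrier and creatine kinase genes 2 rose and 7 fell. The carrier ucp1 fell to 1033 and 910 CPM in mutants, against 2255 and 2260 CPM in siblings (-1.22 ± 0.09), and ckmt2a, a mitochondrial creatine kinase, fell by 1.72 on the log2 scale. Import genes had 6 of 29 risen and 4 fallen, and genes of cristae, fusion and mitophagy 4 of 28 risen and 5 fallen. With 1 library left out in turn, the median ranged from 0.10 to 0.23 for oxidative defence and from -0.23 to -0.11 for carriers. It ranged from 0.02 to 0.23 for import and from -0.08 to 0.03 for cristae, fusion and mitophagy. The numbers called in these lists also changed with the library left out, as among all genes tested.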
